A study of Mus musculus with 12 samples.

Results

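The lysosomal genes described here are a list of 44 genes for lysosomal enzymes, membrane proteins, proton pump subunits and regulators. They were chosen by function, with earlier results of these data known, out of 33246 genes in the deposited count table. Their messenger RNA was followed in fibroblasts from the ears of C57BL/6 mice, males and females 1 month old, which were used at passage 2 after growth in 10% fetal bovine serum. The study's methods also list ear fibroblasts of a Tau-EGFP reporter strain and do not say which strain the sequenced cells came from. For 48 h the cells (500000 seeded) sat on alginate hydrogels carrying an RGD adhesion peptide, which were either elastic (covalently crosslinked) or viscoelastic (ionically crosslinked, of the slow-relaxing kind) and had a stiffness of 2 kPa or 20 kPa. Each of the 4 groups, 2-kPa elastic, 20-kPa elastic, 2-kPa viscoelastic and 20-kPa viscoelastic, had 3 samples, so that every group shares the cells, the serum and the time, and the gel types also differ in their crosslinking chemistry. The comparisons ask whether stress relaxation and stiffness change gene expression, and whether the effect of one depends on the other. The study calls the 3 samples of a group biological replicates and does not tie them to animals, so the p-values measure the spread between these samples.

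Lysosomes are acidic organelles in which proteases, glycosidases, sulfatases and lipases digest material delivered by endocytosis, phagocytosis and autophagy. A vacuolar ATPase pumps protons into them, heavily glycosylated membrane proteins line them, and transporters and channels release the products. In fibroblasts lysosomes take part in the turnover of collagen and proteoglycans, and loss of single enzymes causes lysosomal storage disorders. Many genes of the compartment carry a promoter motif, named CLEAR, that is bound by the transcription factors TFEB and TFE3.

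Between 36626221 and 43612804 reads were counted on genes in a sample, and the lysosomal genes together took 0.889% to 1.08% of them. Of the 44 genes, 43 were among the 14542 genes that passed the filter on low counts and were tested. Fibroblast markers were high, with 10 of 10 tested and a summed level of 23733 to 29275 CPM (counts relative to the scaled library size) in a sample. Markers of macrophages, which are rich in lysosomes, summed to 5.44 to 9.35 CPM, and 10 of their 12 genes averaged under 1 CPM, Adgre1, Itgam, Fcgr1, Tyrobp and C1qa among them. Cartilage markers were also present, with Col2a1 at a mean of 2839 CPM and Acan at 1139 CPM, although the cells are labelled as fibroblasts. The mitochondrial share of the counts was 1.77% to 2.68% in 10 samples but 2.97% and 3.34% in replicate 2 of the 2-kPa and the 20-kPa viscoelastic group. Those 2 samples also had the highest summed lysosomal level among the viscoelastic samples. Counts of called lysosomal genes are also given without them. Because they were the highest, leaving them out lowers the viscoelastic levels of the list by construction. A larger count of lower genes without them is therefore not separate evidence of a fall.

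Levels are given as CPM after TMM scaling, and genes were compared with each other only per kilobase of annotated exon. On that scale the 43 tested genes ran from 1.03 to 356 CPM per kb. The highest were Psap, the precursor of the saposins that help enzymes to reach sphingolipids (ENSMUSG00000004207.14, mm10 chr10:60277627-60302597, plus strand), and Lamp1, a major glycoprotein of the lysosomal membrane (ENSMUSG00000031447.7, mm10 chr8:13159161-13175338, plus strand), at 314 CPM per kb. Psap had a level of 1252, 1117 and 1101 CPM on 2-kPa elastic gels, 986, 884 and 968 CPM on 20-kPa elastic gels, 852, 1011 and 888 CPM on 2-kPa viscoelastic gels and 875, 959 and 828 CPM on 20-kPa viscoelastic gels. All 3 samples of the 2-kPa elastic group stood above the other 9 samples. Lamp1 had 947, 903 and 886 CPM on 2-kPa and 866, 796 and 830.3 CPM on 20-kPa elastic gels, with 785, 835 and 778 CPM on 2-kPa and 783, 855 and 802 CPM on 20-kPa viscoelastic gels. Here too the 2-kPa elastic samples were the top 3. Ctsd, the aspartic protease cathepsin D, followed with 284 CPM per kb, and its samples held 766, 722 and 705 CPM on 2-kPa elastic gels, 675, 599 and 577 CPM on 20-kPa elastic gels, 649, 718 and 661 CPM on 2-kPa viscoelastic gels and 643, 697 and 588 CPM on 20-kPa viscoelastic gels. For Ctsd the elastic groups did not overlap, whereas the 2-kPa elastic and 2-kPa viscoelastic groups did.

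**Figure D1:**
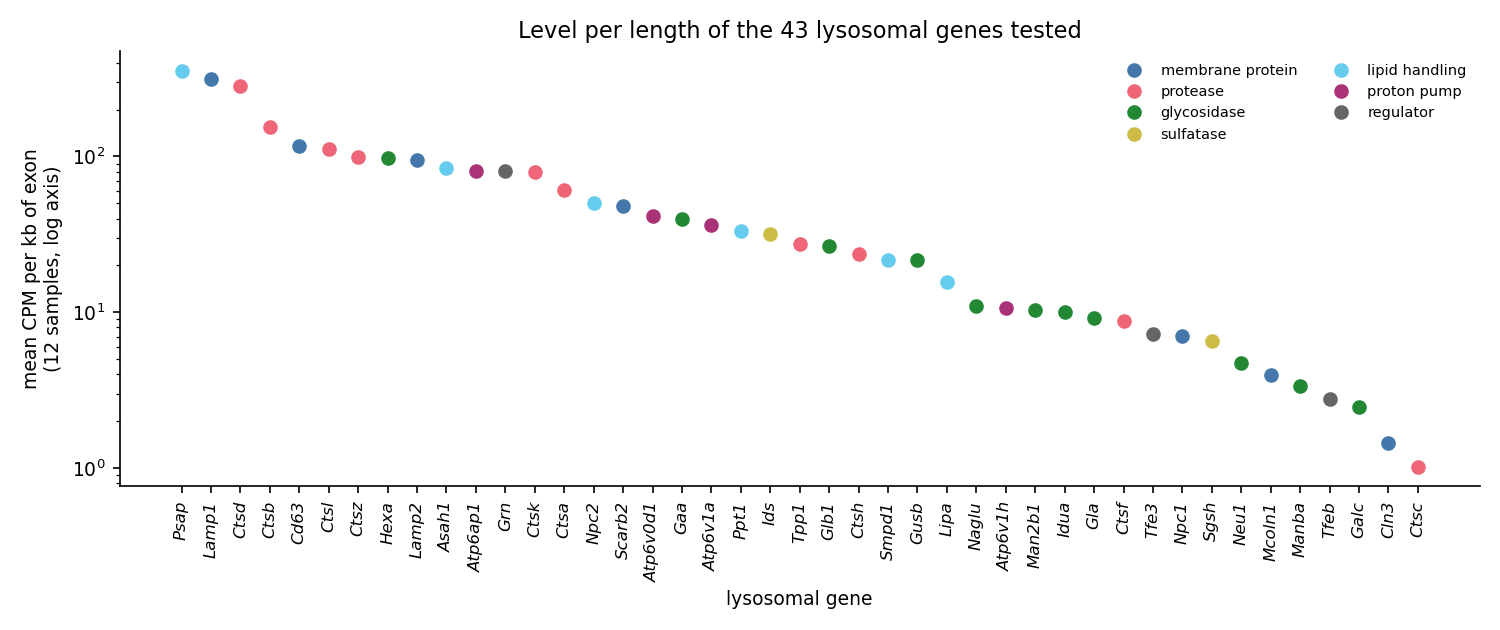
Mean level over the 12 samples in CPM per kilobase of exon (log axis) for each of the 43 tested lysosomal genes, ordered by level and coloured by role. Psap (356), Lamp1 (314) and Ctsd (284) lead, and Cln3 (1.45) and Ctsc (1.03) come last.

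At the other end were Ctsc, the dipeptidyl peptidase cathepsin C (ENSMUSG00000030560.17, mm10 chr7:88278085-88310888, plus strand), and Cln3, a membrane protein mutated in juvenile Batten disease (ENSMUSG00000030720.16, mm10 chr7:126571207-126585817, minus strand), with 1.45 CPM per kb. Ctsc held 4.79, 5.04 and 7.30 CPM on 2-kPa elastic gels, 6.09, 6.14 and 5.08 CPM on 20-kPa elastic gels, 5.98, 6.77 and 5.92 CPM on 2-kPa viscoelastic gels and 5.57, 7.56 and 5.22 CPM on 20-kPa viscoelastic gels. All 4 groups overlapped. Cln3 held 9.50, 9.04 and 8.21 CPM on 2-kPa and 8.87, 7.80 and 8.04 CPM on 20-kPa elastic gels, and 7.13, 9.89 and 8.57 CPM on 2-kPa and 8.33, 8.55 and 6.87 CPM on 20-kPa viscoelastic gels. Its groups all overlapped as well. Ctss, the cathepsin S of antigen-presenting cells, had 0 to 7 counts per sample and failed the filter. Its levels were 0.143, 0.0980 and 0.0549 CPM on 2-kPa and 0.140, 0.0456 and 0.0247 CPM on 20-kPa elastic gels, and 0.0234, 0.168 and 0 CPM on 2-kPa and 0.0234, 0.141 and 0.0502 CPM on 20-kPa viscoelastic gels. No comparison was made for it.

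Promoter windows of RefSeq (GRCm38.p6, the same assembly as mm10), from 250 bases before to 50 after a transcript start, were found for 39 of the 44 genes and not for Npc1, Ctsb, Ctsh, Asah1 and Atp6v1h. The letters TCACGTGA, the core of the CLEAR motif, and the shorter E-box CACGTG that lies within them, were searched. Both read the same on either strand. TCACGTGA stood in 7 of the 39 genes (17.9%), namely Atp6v0d1, Atp6v1a, Cln3, Ctsa, Ctsd, Gla and Mcoln1, against 2.13% of the 10882 tested genes with a window and 1.12% of the 27025 genes with a window in all. CACGTG stood in 14 of the 39 genes (35.9%), against 11.4% and 8.09%. To show the letters in place, 30 bases centred on the first match are printed, 5′ to 3′ along the gene's strand, for the 7 genes with TCACGTGA and for Ctsf, Gaa and Sgsh, genes with CACGTG whose RNA was called in the comparisons that follow. Capitals mark CACGTG and, where complete, TCACGTGA. The last 2 capitals of the Ctsa stretch begin a second copy.
Atp6v0d1 (chr8:105566050-105566079, minus strand): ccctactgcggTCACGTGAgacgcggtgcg
Atp6v1a (chr16:44139373-44139402, minus strand): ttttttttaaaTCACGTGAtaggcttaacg
Cln3 (chr7:126583340-126583369, minus strand): cacgggtactgTCACGTGAcccccaacctg
Ctsa (chr2:164833749-164833778, plus strand): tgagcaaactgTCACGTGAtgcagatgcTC
Ctsd (chr7:142387908-142387937, minus strand): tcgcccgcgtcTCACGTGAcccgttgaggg
Gla (chrX:134601215-134601244, minus strand): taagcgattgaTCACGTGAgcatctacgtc
Mcoln1 (chr8:3500462-3500491, plus strand): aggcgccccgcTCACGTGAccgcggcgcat
Ctsf (chr19:4855074-4855103, plus strand): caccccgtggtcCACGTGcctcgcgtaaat
Gaa (chr11:119267811-119267840, plus strand): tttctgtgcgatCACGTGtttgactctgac
Sgsh (chr11:119355522-119355551, minus strand): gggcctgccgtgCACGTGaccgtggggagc
The 150 bases before the start are shown for Lamp1, where CACGTG is repeated, and for Hexa and Galc, called genes whose windows lack it, with the same capitals.
Lamp1 (chr8:13159011-13159160, plus strand): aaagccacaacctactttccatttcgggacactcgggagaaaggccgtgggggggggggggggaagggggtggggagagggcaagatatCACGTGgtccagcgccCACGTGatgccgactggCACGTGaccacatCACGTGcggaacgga
Hexa (chr9:59539390-59539539, plus strand): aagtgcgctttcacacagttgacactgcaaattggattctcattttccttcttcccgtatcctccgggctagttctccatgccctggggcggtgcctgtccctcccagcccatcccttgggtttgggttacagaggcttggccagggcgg
Galc (chr12:98259460-98259609, minus strand): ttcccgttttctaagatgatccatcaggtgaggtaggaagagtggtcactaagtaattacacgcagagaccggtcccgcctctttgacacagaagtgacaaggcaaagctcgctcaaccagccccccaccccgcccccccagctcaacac
Lamp1 had 4 copies of CACGTG in this stretch and the Hexa and Galc stretches none. A match describes the letters only, and no binding was measured here.

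Most of the tested lysosomal genes had their highest group mean on 2-kPa elastic gels. Of the 43 tested genes, 29 (67.4%) did so, against 26.2% of all tested genes, and 3, 8 and 3 had it on 20-kPa elastic, 2-kPa viscoelastic and 20-kPa viscoelastic gels. In 12 genes (27.9%) all 3 samples on 2-kPa elastic gels stood above the other 9, against 6.42% of all tested genes. These 12 were the membrane proteins Lamp1, Lamp2, Scarb2 and Npc1, the enzymes Ctsb, Gaa, Hexa, Man2b1, Sgsh and Smpd1, the saposin precursor Psap and the regulator Tfeb. The summed level of the list was 10565 ± 375 CPM (SD, n = 3) on 2-kPa elastic gels, with 10941, 10563 and 10191 CPM in the samples. It was 9265 ± 424 CPM on 20-kPa elastic gels (9705, 8859 and 9230), 9418 ± 696 on 2-kPa viscoelastic gels (8980, 10220.1 and 9053) and 9328 ± 686 on 20-kPa viscoelastic gels (9028, 10113 and 8842). The sum on 2-kPa elastic gels overlapped with the 2-kPa viscoelastic group through replicate 2 of the latter alone. It is carried by few genes, since Psap, Ctsb, Lamp2, Lamp1, Ctsl and Ctsd made up 52.4% of it. The macrophage markers summed to 6.95 to 9.35 CPM on 2-kPa elastic, 6.36 to 8.38 on 20-kPa elastic, 6.22 to 8.04 on 2-kPa viscoelastic and 5.44 to 6.69 on 20-kPa viscoelastic gels. In bulk RNA, fewer cells of a type and less RNA in each cell cannot be told apart.

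**Figure D2:**
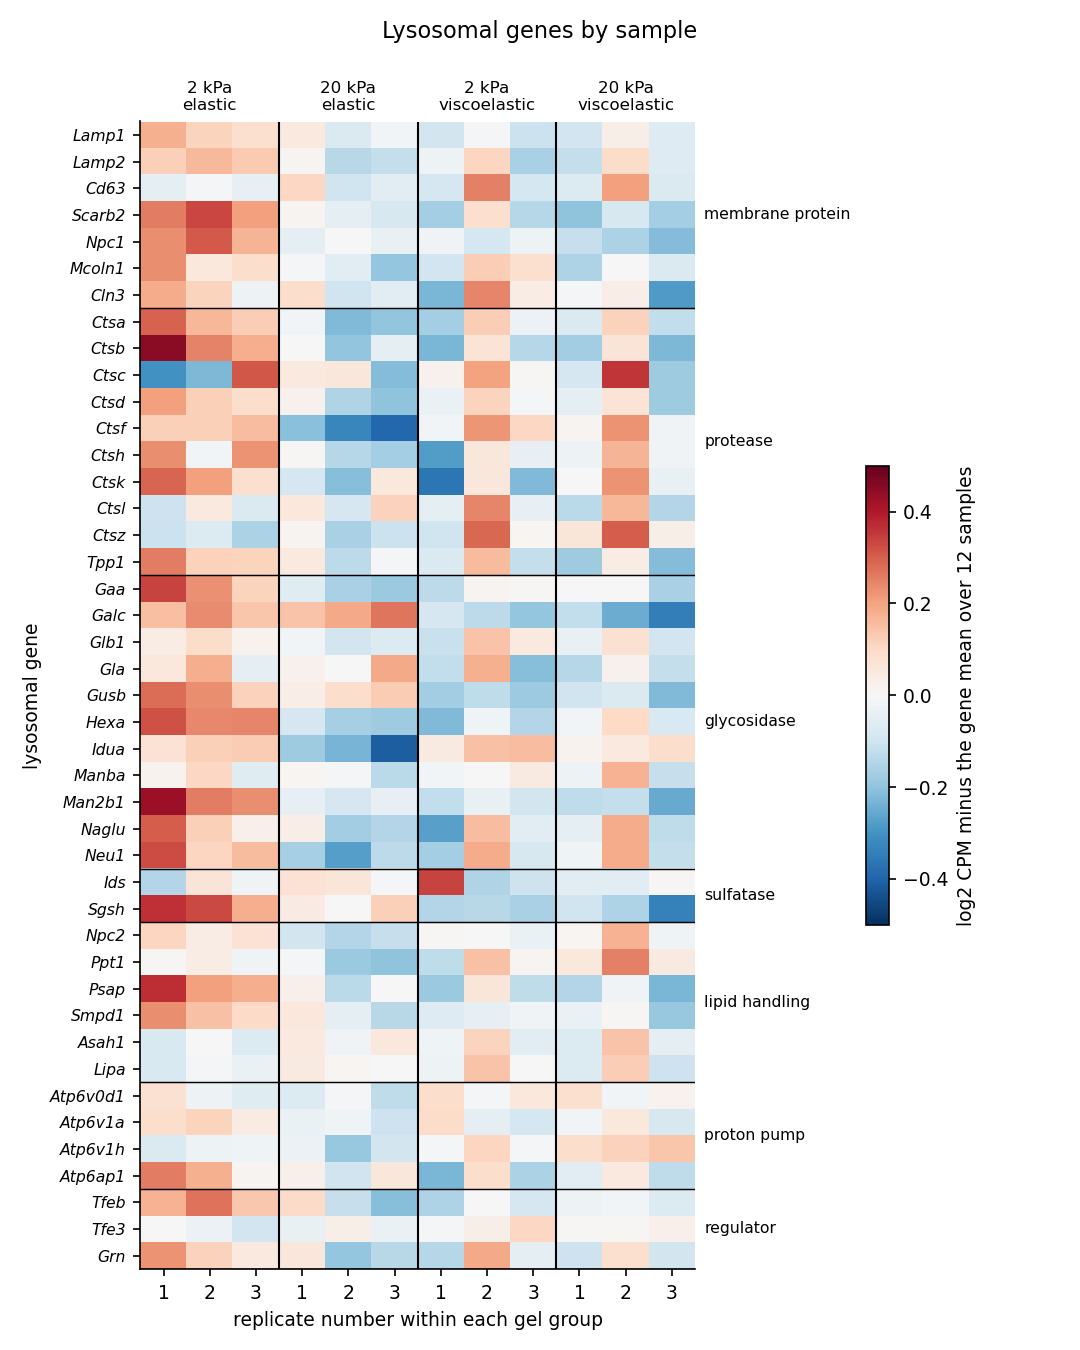
Log2 CPM of the 43 tested lysosomal genes (rows, by role) in the 12 samples (columns), minus each gene's mean over all samples, from blue (below the mean) to red (above). The 2-kPa elastic columns are mostly red, and replicate 2 of both viscoelastic groups is redder than the other viscoelastic samples.

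On 2-kPa gels, where viscoelastic was set against elastic, 13 of 43 lysosomal genes were lower on the viscoelastic gels and 0 were higher, while 11.1% of all tested genes were called lower and 8.77% higher. The 13 were the membrane proteins Scarb2 and Npc1, the proteases Ctsb and Ctsk, the glycosidases Gaa, Galc, Gusb, Hexa and Man2b1, the sulfatase Sgsh, the lipid-handling genes Psap and Smpd1, and Tfeb. The median log2 fold change of the 43 genes was -0.13, beside -7.5e-05 for all tested genes, and 31 of the 43 were below 0. Without replicate 2 of the 2-kPa viscoelastic group the 43 genes had a median of -0.22. By role, 5 of 11 glycosidases, 2 of 10 proteases, 2 of 7 membrane proteins, 2 of 6 lipid-handling genes, 1 of 2 sulfatases and 1 of 3 regulators were lower. None of the 4 proton pump subunits passed the test, with log2 fold changes of 0.04 for Atp6v0d1, -0.09 for Atp6v1a, 0.07 for Atp6v1h and -0.25 for Atp6ap1. Among the tested markers of other cell types, 1 of 4 for cartilage, Acan, was also lower on viscoelastic gels at 2 kPa (-0.47, adjusted p = 0.00847). So was 1 of 5 for macrophages, Cd68 (-0.57, adjusted p = 0.0453), which had a mean of 4.25 CPM and encodes a lysosomal membrane protein. Higher at 2 kPa were Trp63 of the keratinocyte markers (0.52, adjusted p = 0.00302), and Kdr and Tek of the endothelial markers. Kdr gave 0.85 (adjusted p = 0.0184) and Tek 1.06 (adjusted p = 0.00759), at means of 0.85 and 1.22 CPM. Of the 10 fibroblast markers Fap alone was called, with a log2 fold change of -1.67 (adjusted p = 6.29e-05). The part of these markers in the result was not tested.

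The strongest fall on 2-kPa gels was that of Sgsh, which encodes the sulfamidase of heparan sulfate breakdown (ENSMUSG00000005043.13, mm10 chr11:119343425-119355536, minus strand). Its levels were 36.9, 36.1 and 32.6 CPM on 2-kPa elastic gels, 25.9, 26.1 and 25.6 CPM on 2-kPa viscoelastic gels, 29.6, 28.7 and 31.1 CPM on 20-kPa elastic gels and 26.8, 25.8 and 22.7 CPM on 20-kPa viscoelastic gels. Elastic and viscoelastic samples did not overlap at either stiffness, and Sgsh fell on viscoelastic gels by 0.44 ± 0.07 (SE) on the log2 scale (adjusted p = 0.00066) at 2 kPa. Hexa, the alpha subunit of beta-hexosaminidase A that degrades GM2 ganglioside (ENSMUSG00000025232.8, mm10 chr9:59539540-59565109, plus strand), held 241, 228 and 229 CPM on 2-kPa elastic gels and 166, 190.4 and 174 CPM on 2-kPa viscoelastic gels. On 20-kPa gels Hexa held 182, 172 and 171 CPM (elastic) and 191, 207 and 183 CPM (viscoelastic), so that the 2-kPa elastic samples lay above all others. At 2 kPa it was lower on viscoelastic gels, with a log2 fold change of -0.40 ± 0.07 (SE, adjusted p = 0.000925). Ctsb, the abundant cysteine protease cathepsin B, held 1274, 1109 and 1058 CPM on 2-kPa elastic gels and 797, 977 and 845 CPM on 2-kPa viscoelastic gels, beside 932, 814 and 903 CPM on 20-kPa elastic gels and 828, 974 and 799 CPM on 20-kPa viscoelastic gels. It too was highest in the 2-kPa elastic samples, and at 2 kPa it was lower on viscoelastic gels with a log2 fold change of -0.39 ± 0.10 (SE, adjusted p = 0.0127).

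Man2b1, the alpha-mannosidase of glycoprotein breakdown, held 111, 98.1 and 96.7 CPM on 2-kPa elastic gels and 75.6, 80.3 and 77.3 CPM on 2-kPa viscoelastic gels, and 80.0, 77.7 and 79.9 CPM on 20-kPa elastic gels and 75.3, 75.8 and 69.1 CPM on 20-kPa viscoelastic gels. Its 2-kPa comparison gave a log2 fold change of -0.39 ± 0.06 (SE, adjusted p = 0.00068). The other genes called at 2 kPa had log2 fold changes of -0.37 for Gusb (beta-glucuronidase), -0.36 for Ctsk (the collagen-cleaving cathepsin K), -0.34 for Scarb2 (the receptor that carries glucocerebrosidase to the lysosome), -0.34 for Psap, -0.31 for Galc (galactosylceramidase), -0.28 for Npc1 (cholesterol export), -0.26 for Gaa (acid alpha-glucosidase) and -0.20 for Smpd1 (acid sphingomyelinase). Of the regulators, Tfeb held 17.7, 19.0 and 17.2 CPM on 2-kPa elastic gels and 14.1, 15.7 and 14.8 CPM on 2-kPa viscoelastic gels, with 16.8, 14.5 and 13.5 CPM on 20-kPa elastic gels and 15.4, 15.5 and 14.9 CPM on 20-kPa viscoelastic gels. It was highest on 2-kPa elastic gels, and its 2-kPa comparison gave a log2 fold change of -0.27 ± 0.08 (SE, adjusted p = 0.0253). Its relative Tfe3 held 67.1, 65.8 and 62.8 CPM on 2-kPa elastic gels and 66.6, 68.5 and 72.1 CPM on 2-kPa viscoelastic gels, and 65.4, 68.4 and 65.6 CPM on 20-kPa elastic gels and 67.4, 67.4 and 68.3 CPM on 20-kPa viscoelastic gels. Its 2-kPa groups overlapped and gave a log2 fold change of 0.08 ± 0.05 (SE, adjusted p = 0.274). Lamp1 missed the threshold with a log2 fold change of -0.19 ± 0.06 (SE, adjusted p = 0.0504) although its 2 groups did not overlap, and Ctsd gave a log2 fold change of -0.11 ± 0.08 (SE, adjusted p = 0.342).

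Without replicate 1 of the 2-kPa elastic group the count of 13 (30.2% of the 43) fell to 7 (16.3%), while the share of all tested genes called lower fell to 5.99%. Without replicate 2 of both viscoelastic groups (chosen after the data were seen, with the highest lysosomal sums of their groups) it was 21 (48.8%), beside 11.1% of all tested genes. Scarb2, Npc1, Gusb, Hexa, Man2b1 and Sgsh were called under all 20 alternatives. Ctsb and Psap were lost without replicate 1 of the 2-kPa elastic group (adjusted p = 0.0756 and 0.0715). Lost too were Ctsk, Gaa, Galc, Smpd1 and Tfeb under 1 to 11 alternatives, with an adjusted p of at most 0.175. With the correction for gene length, Galc gave -0.18 (adjusted p = 0.0523) and Npc1 -0.18 (adjusted p = 0.0250).

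**Figure D3:**
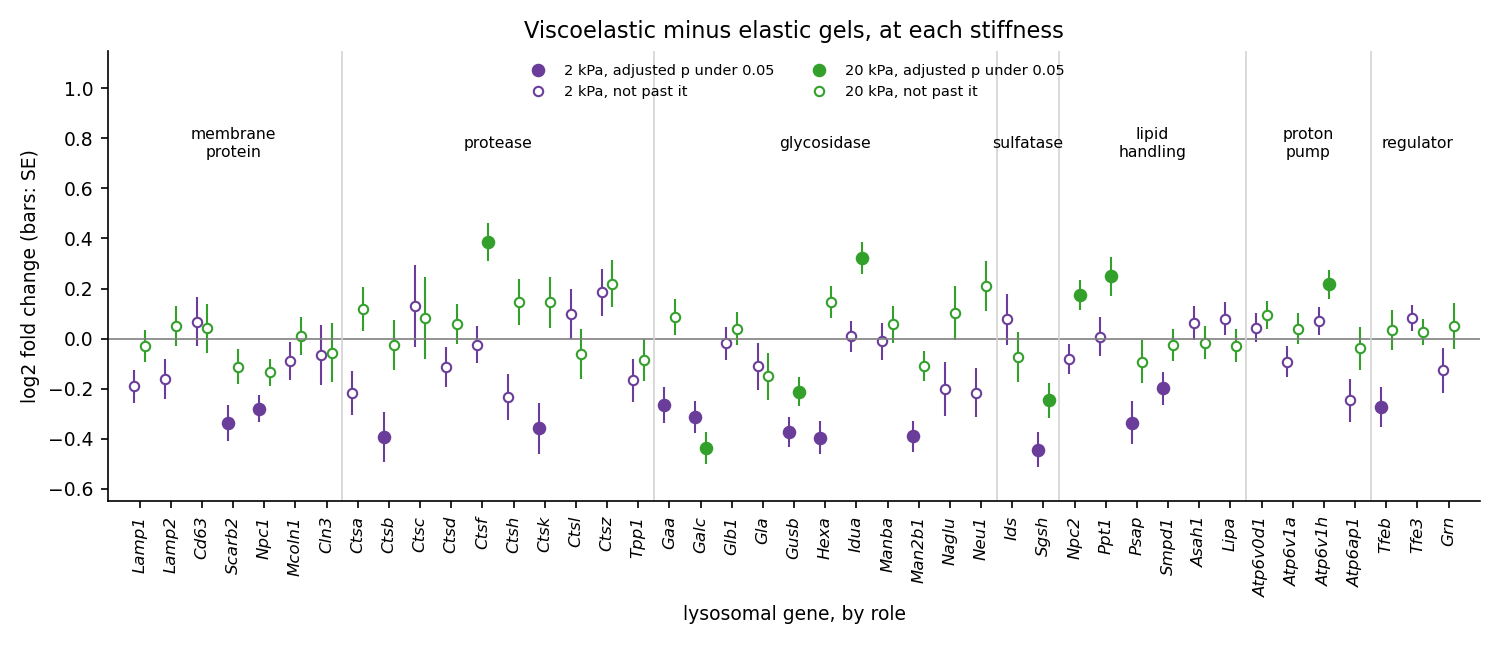
Log2 fold change of viscoelastic over elastic gels with its standard error for each of the 43 tested lysosomal genes, by role, at 2 kPa (purple) and 20 kPa (green); filled points have an adjusted p under 0.05. The 13 filled purple points all lie below 0, and the 8 filled green points lie on both sides, 5 above and 3 below.

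On 20-kPa gels the same gel types gave a mixed picture, with 5 lysosomal genes higher on viscoelastic gels (Ctsf, Idua, Npc2, Ppt1 and Atp6v1h) and 3 lower (Galc, Gusb and Sgsh). Of all tested genes, 17.4% were called higher and 16.1% lower, so the members' share lay below the background in both directions. Their median log2 fold change was 0.04, beside 0.02 for all tested genes, and without replicate 2 of the 20-kPa viscoelastic group it turned to -0.03, beside 0.01. Ctsf, a cysteine protease of the papain family (ENSMUSG00000083282.3, mm10 chr19:4855130-4860918, plus strand), held 38.0, 35.0 and 33.4 CPM on 20-kPa elastic gels and 44.3, 51.3 and 43.4 CPM on 20-kPa viscoelastic gels, against 47.6, 47.6 and 48.9 CPM on 2-kPa elastic gels and 43.5, 51.1 and 47.2 CPM on 2-kPa viscoelastic gels. The 20-kPa elastic samples were the lowest 3 of the 12, and Ctsf was higher on viscoelastic gels at 20 kPa with a log2 fold change of 0.38 ± 0.08 (SE, adjusted p = 0.00161). Idua, the iduronidase that acts on heparan and dermatan sulfate (ENSMUSG00000033540.18, mm10 chr5:108660331-108684557, plus strand), held 37.0, 35.6 and 31.5 CPM on 20-kPa elastic gels and 42.4, 43.3 and 44.5 CPM on 20-kPa viscoelastic gels, beside 44.04, 45.4 and 45.7 CPM and 43.2, 46.3 and 46.5 CPM on the 2-kPa elastic and viscoelastic gels. Here again the 20-kPa elastic samples were the lowest, and the comparison gave a log2 fold change of 0.32 ± 0.06 (SE, adjusted p = 0.00143). Ppt1, a thioesterase that removes palmitate from proteins, held 121, 107 and 106 CPM on 20-kPa elastic gels and 127, 145 and 126 CPM on 20-kPa viscoelastic gels, and 123, 125 and 120.3 CPM on 2-kPa elastic gels and 112, 135 and 123 CPM on 2-kPa viscoelastic gels. Its 20-kPa groups did not overlap and gave a log2 fold change of 0.25 ± 0.08 (SE, adjusted p = 0.0243).

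Galc, which degrades galactosylceramide (ENSMUSG00000021003.10, mm10 chr12:98202294-98259459, minus strand), behaved otherwise and was lower on viscoelastic gels at both stiffnesses. It held 39.9, 41.3 and 43.7 CPM on 20-kPa elastic gels and 33.3, 30.5 and 28.5 CPM on 20-kPa viscoelastic gels, with a log2 fold change of -0.44 ± 0.06 (SE, adjusted p = 0.000252). On 2-kPa gels Galc held 40.3, 42.7 and 39.9 CPM (elastic) and 34.2, 33.1 and 31.7 CPM (viscoelastic), with a log2 fold change of -0.31 ± 0.06 (SE, adjusted p = 0.00389). All 6 viscoelastic samples lay below all 6 elastic ones. Gusb held 118, 114 and 105 CPM on 2-kPa elastic gels, 86.3, 89.1 and 85.7 CPM on 2-kPa viscoelastic gels, 99.5, 103 and 106 CPM on 20-kPa elastic gels and 90.9, 92.6 and 83.5 CPM on 20-kPa viscoelastic gels. Its elastic samples were likewise all above the viscoelastic ones, with a log2 fold change of -0.21 ± 0.06 (SE, adjusted p = 0.0136) at 20 kPa. Sgsh gave a log2 fold change of -0.25 ± 0.07 (SE, adjusted p = 0.0143) at 20 kPa. Npc2, which hands cholesterol to Npc1, and Atp6v1h, a regulatory subunit of the proton pump, were higher by log2 fold changes of 0.17 and 0.22. Ctsf, Galc and Idua were called under all 20 alternatives. Gusb and Sgsh were lost without replicate 3 of either 20-kPa group (adjusted p up to 0.0742 and 0.0778), and Atp6v1h without replicate 2 of the 20-kPa elastic group (adjusted p = 0.054). Npc2 and Ppt1 were lost under 9 and 4 alternatives, the one without replicate 2 of the 20-kPa viscoelastic group among them (adjusted p up to 0.175 and 0.117). The count of 8 was 5 without replicate 2 and 4 without replicate 3 of the 20-kPa elastic group, and 6 (3 higher and 3 lower) without replicate 2 of both viscoelastic groups. Calls among all tested genes went from 4866 to 3666, 3177 and 4424 in these 3 fits.

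Averaged over both stiffnesses, viscoelastic gels had 9 lysosomal genes lower (Scarb2, Npc1, Ctsb, Galc, Gusb, Hexa, Man2b1, Sgsh and Psap) and 4 higher (Ctsf, Ctsz, Idua and Atp6v1h). The background was 20.4% of all tested genes lower and 19.6% higher, so 9 of 43 lower (20.9%) is close to it. Without replicate 2 of both viscoelastic groups, 15 lysosomal genes were lower (34.9%) and 2 higher, beside 19.1% and 18.1% of all tested genes. Those samples had the highest lysosomal sums of their groups, so their removal itself favours lower calls. It also changes the spread of each gene, which the fit estimates over all groups together. The count of 9 lower was 14 (32.6%) without replicate 2 of the 2-kPa viscoelastic group alone, beside 20.06% of all tested genes. Without replicate 2 of the 20-kPa viscoelastic group alone it was 12 (27.9%), beside 17.96% of all tested genes. The lowest adjusted p belonged to Galc, with a log2 fold change of -0.37 ± 0.05 (SE, adjusted p = 3.92e-05), followed by Sgsh with a log2 fold change of -0.34 ± 0.05 (SE, adjusted p = 0.000114), Gusb with a log2 fold change of -0.29 ± 0.04 (SE, adjusted p = 0.000123) and Man2b1 with a log2 fold change of -0.25 ± 0.04 (SE, adjusted p = 0.000471). These 4 were called under all 19 alternatives, as were Scarb2, Npc1, Idua, Psap and Atp6v1h. Hexa, with a log2 fold change of -0.12 ± 0.05 (SE, adjusted p = 0.0426), was lost under 13 of them. Its mean spans opposite directions, -0.40 at 2 kPa and 0.15 at 20 kPa (adjusted p = 0.0957, not called). With a correction for gene length, Galc, with 14879 exon bases, moved to -0.24 and Npc1, with 11317, to -0.096 (adjusted p = 0.000902 and 0.0484). It moved Hexa, with 1996, to -0.24 (adjusted p = 0.000546), Atp6v1h, with 9746, to 0.24 (adjusted p = 0.000782), and Ctsz, the carboxypeptidase cathepsin Z with 1441, from 0.20 to 0.05 (adjusted p = 0.0241 and 0.540).

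On elastic gels, where 20 kPa was set against 2 kPa, 14 of 43 lysosomal genes were lower on the stiffer gels and 0 were higher, beside 7.14% of all tested genes lower and 6.81% higher. This comparison and that of the gel types at 2 kPa share the 3 samples on 2-kPa elastic gels, so the calls of the 2 are not independent of each other. The 14 were the membrane proteins Scarb2 and Npc1, the proteases Ctsa, Ctsb and Ctsf, the glycosidases Gaa, Hexa, Idua, Man2b1 and Neu1, the sulfatase Sgsh, the lipid-handling genes Npc2 and Psap, and Tfeb. The median log2 fold change was -0.19 over the 43 genes and -0.0083 over all tested genes, and 33 of the 43 were below 0. The largest fall was that of Ctsf, with a log2 fold change of -0.44 ± 0.08 (SE, adjusted p = 0.0017), followed by Hexa with a log2 fold change of -0.41 ± 0.07 (SE, adjusted p = 0.000968). Neu1, the sialidase that forms a complex with Ctsa, followed. It held 22.0, 18.9 and 19.5 CPM on 2-kPa elastic gels and 15.6, 14.5 and 16.0 CPM on 20-kPa elastic gels, and 15.6, 20.0 and 16.6 CPM and 17.2, 19.9 and 16.2 CPM on the 2-kPa and 20-kPa viscoelastic gels. Its elastic groups did not overlap and its viscoelastic groups did, with a log2 fold change of -0.39 ± 0.10 (SE, adjusted p = 0.0175) on elastic gels. Ctsa, the protective protein of that complex, gave a log2 fold change of -0.34 ± 0.09 (SE, adjusted p = 0.0185).

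Idua and Man2b1 were lower on 20-kPa elastic gels by log2 fold changes of -0.38 and -0.36, Ctsb by -0.38, Gaa by -0.36, Scarb2 by -0.30, Psap by -0.29, Tfeb by -0.27, Npc1 by -0.26, Sgsh by -0.24 and Npc2 by -0.19. Lamp1 gave a log2 fold change of -0.13 ± 0.06 (SE, adjusted p = 0.184), Ctsd a log2 fold change of -0.25 ± 0.08 (SE, adjusted p = 0.0526) and Tfe3 a log2 fold change of 0.03 ± 0.05 (SE, adjusted p = 0.774), none of which passed the test. Of the 4 cartilage markers tested, Acan was lower on 20-kPa elastic gels (-0.50, adjusted p = 0.00767), while Sox9, Col2a1 and Comp had log2 fold changes of -0.24, -0.29 and -0.20 and did not pass the test. The fifth, Matn1, averaged under 1 CPM. The sum of these markers was 4320 to 4365 CPM on 20-kPa elastic gels and 4596 to 5893 on 2-kPa elastic gels, beside 4595 to 5820 on 2-kPa viscoelastic and 4614 to 5812 on 20-kPa viscoelastic gels, and its part in the result was not tested. Of the 5 macrophage markers tested, Cd68 gave -0.58 (adjusted p = 0.0556) for 20 against 2 kPa on elastic gels. Mrc1 was higher (1.28, adjusted p = 0.0432), and Ptprc gave 1.30 (adjusted p = 0.0569), at means of 0.25 and 0.22 CPM. Lyz2 (0.22) and Csf1r (0.09) did not pass the test. Called higher were also Trp63 (0.41) of the keratinocyte and Kdr (0.80) and Tek (0.78) of the endothelial markers. Of the fibroblast markers, Lum (-0.66) and Fap (-1.03) were called lower and Thy1 (0.47) higher. Npc1, Ctsf, Gaa, Hexa, Idua and Man2b1 were called under all 20 alternatives, and the other 8 were lost under 2 to 14 of them, with an adjusted p of at most 0.167. The count of 14 (32.6% of the 43) was 7 (16.3%) without replicate 1 of the 2-kPa elastic group, 7 without replicate 2 and 8 (18.6%) without replicate 3 of the 20-kPa elastic group. In those fits the share of all tested genes called lower was 4.34%, 4.97% and 4.09%. Without replicate 2 of both viscoelastic groups the count was 21 (48.8%), beside 9.14% of all tested genes. No elastic sample was left out there, and the median log2 fold change of the 43 genes stayed at -0.19. The fit estimates the spread of a gene over all groups together, so leaving out viscoelastic samples also alters the test between elastic gels.

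On viscoelastic gels no lysosomal gene passed the test for 20 against 2 kPa in edgeR or in DESeq2, and 2 of the 43 had an unadjusted p under 0.05. Few genes of any kind were called there, 1.58% higher and 0.695% lower. This count of 331 genes was 757 in DESeq2, 36 without replicate 1 and 9 without replicate 3 of the 20-kPa viscoelastic group, 38 in the fit to the 6 samples compared and 154 with the replicate block, with no lysosomal gene in any of these. The log2 fold changes of the lysosomal genes ran from -0.12 to 0.23 with a median of -0.02. This median was 0.03 without replicate 2 of the 2-kPa or replicate 3 of the 20-kPa viscoelastic group. It was -0.05 without replicate 1 of the 2-kPa and -0.07 without replicate 2 of the 20-kPa viscoelastic group. Npc1 had the lowest value, a log2 fold change of -0.12 ± 0.05 (SE, adjusted p = 0.239), and Ctsk the highest, a log2 fold change of 0.23 ± 0.10 (SE, adjusted p = 0.231). Hexa gave a log2 fold change of 0.13 ± 0.07 (SE, adjusted p = 0.285) and Ctsf a log2 fold change of -0.03 ± 0.08 (SE, adjusted p = 0.875).

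**Figure D4:**
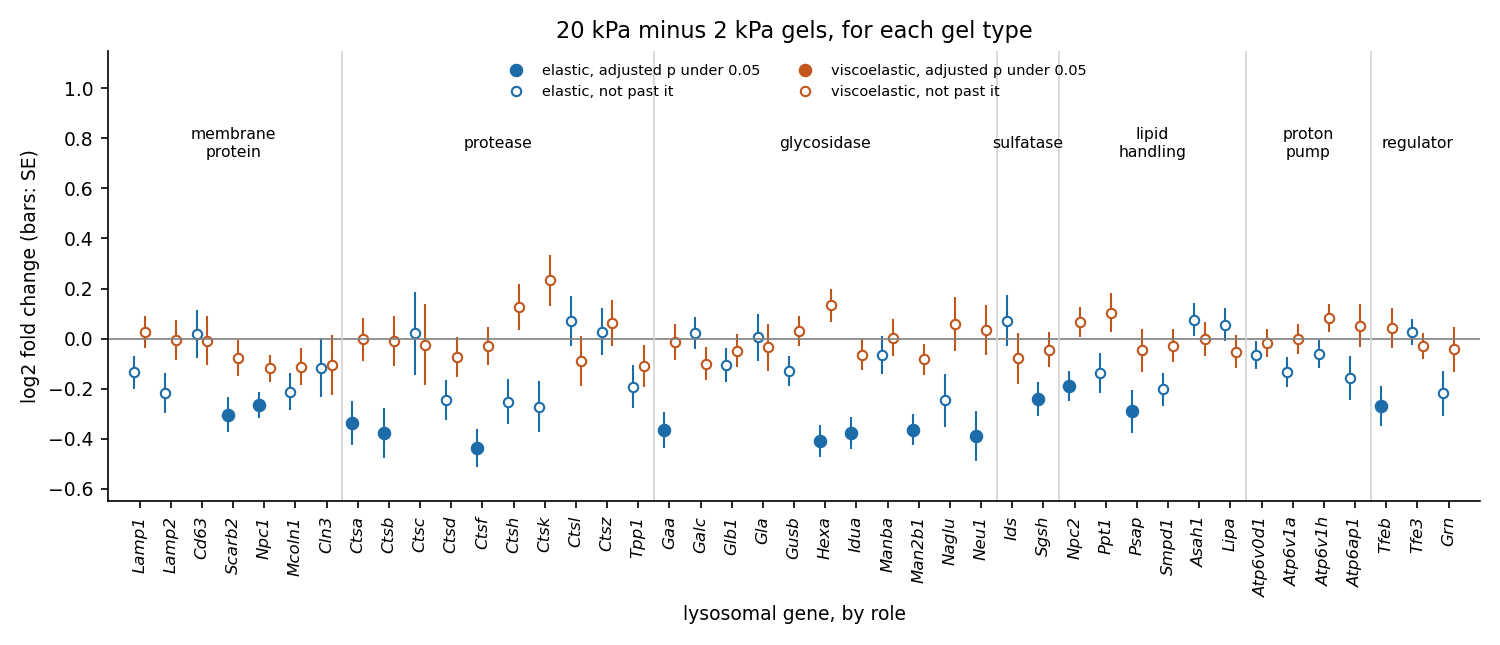
Log2 fold change of 20 kPa over 2 kPa with its standard error for each of the 43 tested lysosomal genes, by role, on elastic (blue) and viscoelastic (orange) gels; filled points have an adjusted p under 0.05. The 14 filled points are all blue and below 0, and no orange point is filled.

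The difference between the stiffness effects on the 2 gel types was tested as an interaction, which is above 0 where 20 kPa minus 2 kPa is larger on viscoelastic than on elastic gels. It was called above 0 for 5 lysosomal genes, Hexa, Ctsk, Ctsf, Gaa and Idua, and below 0 for none, against 4.45% and 3.12% of all tested genes. The median of the 43 genes was 0.17, beside 0.02 for all tested genes, and 34 lay above 0. The interaction uses the same samples as the 2 stiffness effects given before, those on 2-kPa elastic gels included, so it is not independent of them. Hexa had the largest value, a log2 difference of 0.54 ± 0.09 (SE, adjusted p = 0.00228), beside log2 fold changes for stiffness of -0.41 on elastic and 0.13 on viscoelastic gels. Ctsk held 145, 137 and 126 CPM on 2-kPa elastic gels, 112, 103 and 123 CPM on 20-kPa elastic gels, 92.7, 124 and 102 CPM on 2-kPa viscoelastic gels and 119, 139 and 116 CPM on 20-kPa viscoelastic gels. Its 2-kPa elastic samples lay above those of 20-kPa elastic gels, whereas the viscoelastic groups overlapped. Its interaction was a log2 difference of 0.50 ± 0.15 (SE, adjusted p = 0.0477). Gaa, which digests glycogen, held 239.7, 222 and 205 CPM on 2-kPa and 182, 169 and 167 CPM on 20-kPa elastic gels, and 173, 192 and 190.3 CPM on 2-kPa and 190.0, 189.9 and 169.6 CPM on 20-kPa viscoelastic gels. The 2-kPa elastic samples lay above all others, and the interaction was a log2 difference of 0.35 ± 0.10 (SE, adjusted p = 0.0486). For Ctsf the interaction was a log2 difference of 0.41 ± 0.11 (SE, adjusted p = 0.0308) and for Idua a log2 difference of 0.31 ± 0.09 (SE, adjusted p = 0.042), both genes being lowest on 20-kPa elastic gels.

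Of these 5 calls only that of Hexa held under all 19 alternatives, where its adjusted p was at most 0.00904. The other 4 were lost under 8 to 13 of them, and the count of 5 ranged from 1 (without any one of 2-kPa elastic replicate 1 or 2, 20-kPa elastic replicate 2, 2-kPa viscoelastic replicate 1 or 20-kPa viscoelastic replicate 2) to 11 (without 2-kPa viscoelastic replicate 2). Interaction calls among all tested genes were 1100 in the main fit, 670 to 970 where 1 lysosomal gene was called and 1182 where 11 were. Without replicate 2 of both viscoelastic groups the lysosomal count was 4, and the median of the 43 genes was 0.15.

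**Figure D5:**
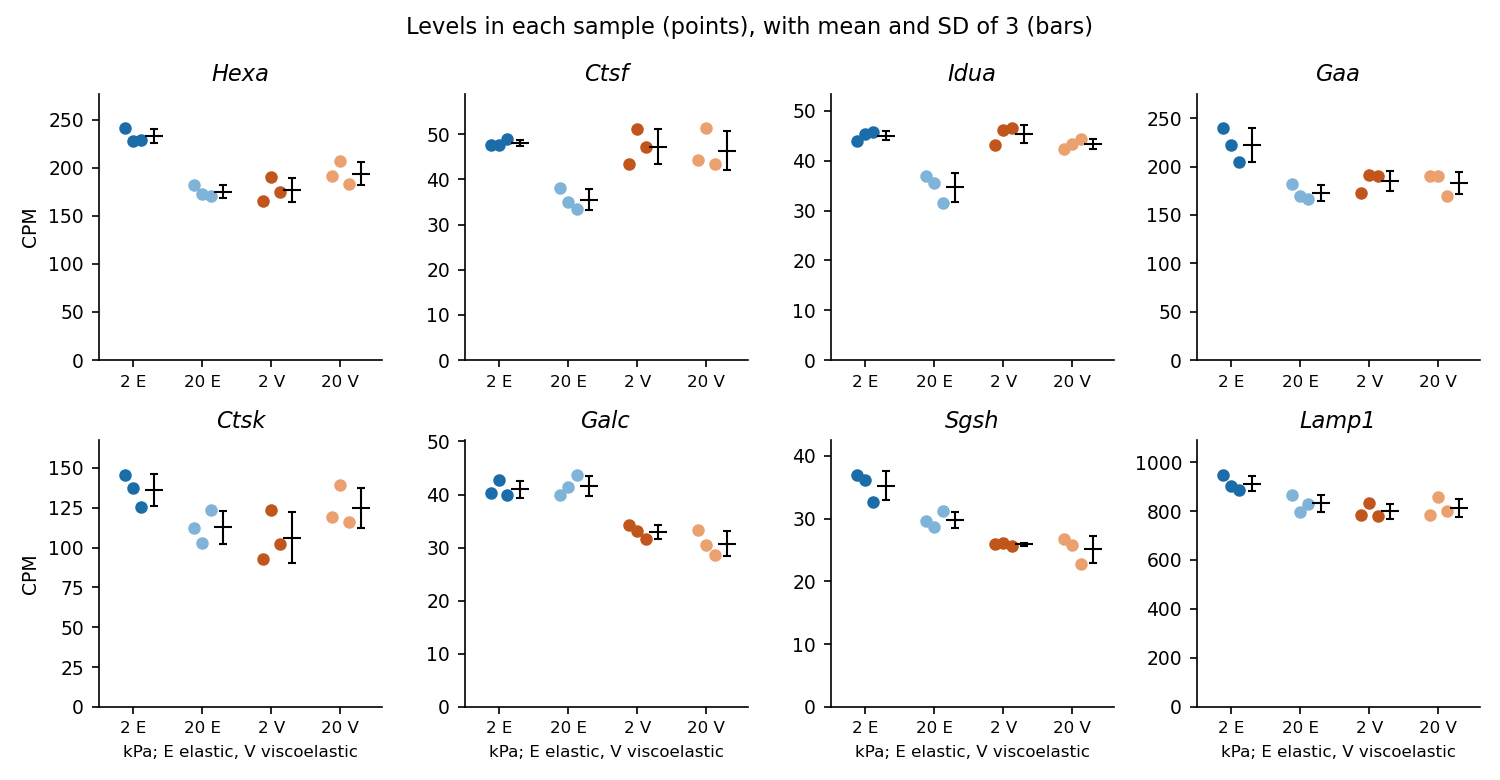
CPM in each sample (points) with the mean and SD of the 3 (black bars) for 8 lysosomal genes on 2-kPa and 20-kPa elastic (E, blue) and viscoelastic (V, orange) gels. Hexa, Gaa, Sgsh and Lamp1 are highest on 2-kPa elastic gels, Ctsf and Idua are lowest on 20-kPa elastic gels, and Galc is lower on both viscoelastic gels.

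The remaining 22 tested genes passed the test in none of the 6 comparisons. They were the membrane proteins Lamp1, Lamp2, Cd63, Mcoln1 and Cln3, the proteases Ctsc, Ctsd, Ctsh, Ctsl and Tpp1, the glycosidases Gla, Glb1, Manba and Naglu, the sulfatase Ids, the lipid hydrolases Asah1 and Lipa, the proton pump genes Atp6ap1, Atp6v0d1 and Atp6v1a, and Tfe3 and Grn, the latter encoding progranulin. Their log2 fold changes ran from -0.25 to 0.13 for viscoelastic over elastic gels at 2 kPa and from -0.25 to 0.08 for 20 over 2 kPa on elastic gels, so the lowest of them lay below some called genes. Ids had one sample apart, with 203, 145 and 149 CPM on 2-kPa viscoelastic gels. Of the 7 genes with TCACGTGA, none was called between gel types at either stiffness, and Ctsa alone was lower on 20-kPa elastic gels. Among genes with CACGTG, 2 of 14 were called lower between the gel types of 2 kPa and 4 of 14 on 20-kPa elastic gels, beside 9 of 24 and 8 of 24 of the tested genes whose windows lack it. Of all tested genes, 11.1% were called lower and 8.77% higher between the gel types at 2 kPa. At 20 kPa 16.1% were lower and 17.4% higher, and 7.14% were lower on 20-kPa elastic gels. At such shares few calls stand among 7 or 14 genes, so these counts do not show that genes with the motif were spared. They are descriptions, and no test of the difference was made.

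Some counts may hold reads of a neighbouring gene, since exons overlap and the strand setting of the counting is not stated. In the annotation, 34.4% of the exon bases of Ctsd lie under Gm49369 on the same strand, 26.9% of Ctsl under the antisense gene Gm47123, 21.6% of Sgsh under Card14, 12.8% of Hexa under Tmem202, 12.8% of Ctsb under Fdft1 and 10.5% of Ctsa under Pltp, the last 4 on the opposite strand. Over the 12 samples Card14 and Tmem202 were given only 180 and 458 counts in all, while Fdft1 had 25994 and Pltp 5719. Gm49369 and Gm47123 are not listed under these symbols among the deposited counts.

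Other genes of the lysosomal and autophagic system, 161 in 6 lists of which 158 were tested, are given by their counts of called genes, with the gene of lowest adjusted p in each direction. Their counts, those for autophagy included, come from the main test alone and were not taken under the alternatives. Of 32 other hydrolases and cofactors, 4 were higher and 7 lower on viscoelastic gels at 2 kPa, 7 and 4 at 20 kPa, and 1 and 7 for 20 against 2 kPa on elastic gels. The shares of all tested genes called higher and lower were 8.77% and 11.1%, 17.4% and 16.1%, and 6.81% and 7.14% in these comparisons. Averaged over both stiffnesses, Ctso (cathepsin O) rose on viscoelastic gels by a log2 fold change of 0.42 and Arsb (arylsulfatase B) fell by 0.42, with adjusted p values of 3.59e-05 and 1.66e-05. Of 29 other membrane proteins and transporters, 1 was higher (Laptm4a, 0.19) and 12 were lower, led by the chloride exchanger Clcn7 (-0.23), in that mean effect, where 19.6% of all tested genes were higher and 20.4% lower. Cd68, one of the 12, fell further, by 0.45 on the log2 scale, at an adjusted p of 0.0178. Of 14 other subunits of the proton pump, 5 were higher, led by Atp6v1f (0.36), and 3 lower, led by Atp6v0a2 (-0.24). Of 25 genes that sort hydrolases to the lysosome, 4 were higher, led by the late endosomal GTPase Rab7 (0.14), and 6 lower, led by Gnptab (-0.37), which helps to make the mannose 6-phosphate tag. Of 26 genes for nutrient sensing at the lysosome, 9 were higher, led by Lamtor2 (0.28), and 6 lower, led by Fnip2 (-0.49).

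Autophagy genes that were called were mostly higher on viscoelastic gels, with 13 of 32 (40.6%) higher and 1 (3.12%) lower in the mean effect, where the background was 19.6% and 20.4%. At 2 kPa 7 (21.9%) were higher and 0 lower, beside 8.77% and 11.1% of all tested genes, and at 20 kPa 11 (34.4%) were higher and 3 (9.38%) lower, beside the 17.4% and 16.1% of all tested genes. Gabarapl1, of the family of proteins that are conjugated to the autophagosome membrane, led with a mean log2 fold change of 0.34 (adjusted p = 4.15e-05), and the gene that fell was Atg9a, a membrane scramblase, at -0.26 (adjusted p = 0.00141). For 20 against 2 kPa on elastic gels, 1 of 32 autophagy genes was higher and 1 lower (3.12% each). Of all tested genes 6.81% were higher and 7.14% lower, and of the 43 lysosomal genes 0 were higher and 14 lower (32.6%).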

How the data were processed

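Per the labels, messenger RNA was isolated with poly-T beads and reverse transcribed with random hexamers. The authors used Trimmomatic for trimming, STAR for alignment to mm10 and featureCounts with a GENCODE annotation for counting, and deposited the raw counts of all samples as 1 table. The annotation release, the strand setting and the treatment of reads that map to several places are not given in the sources used here. Symbols were matched to GENCODE M21 of mm10 for coordinates and exon lengths. Gene lengths in CPM per kb are those of the union of annotated exons.

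The counts of all 12 samples entered the quasi-likelihood test of edgeR (version 4.0.16, R 4.3.3) with 1 coefficient per group and no block, after TMM scaling (factors 0.968 to 1.03). Genes passed filterByExpr with a minimum count of 10 and a minimum total of 15, and the biological coefficient of variation was 7.50%. A gene was called at a Benjamini-Hochberg adjusted p under 0.05 over the 14542 genes tested, with all adjusted p values from this test unless DESeq2 is named. Depth limits precision mainly for genes of low count, such as Ctsc (201 to 321 counts per sample). The scripts were tested on simulated data. Alternatives were DESeq2 1.42.0, median-of-ratios factors, total counts, every gene with a count, the replicate number as a block, 6-sample fits, a correction for gene length and each sample left out.

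The 44 genes, the related lists and the marker lists were chosen with earlier results of these data known. Values in every sample are given by a fixed rule, namely for the 3 called genes with the largest rise and fall in each comparison of 2 groups, the 4 called genes of lowest adjusted p in the mean viscoelastic effect, the genes called for the interaction, the 2 highest and 2 lowest levels per length, Tfeb, Tfe3, Lamp1, Ctsd and genes that failed the filter. Replicate numbers were not used to pair the samples in the main test. Of 18 pairs with the same number, 2 correlated above 0.1 in their deviations from the group means (range -0.20 to 0.31). Both joined the 2-kPa and 20-kPa viscoelastic groups, at 0.18 for replicate 1 and 0.31 for replicate 2, beside 0.05 for replicate 3. Whether samples of these groups share an origin was not tested. Pairs of samples within a group differed by 11.2 to 55.5 times the counting variance, so none was a repeat reading of 1 library. This does not show whether the samples came from separate cultures or animals. The range was 11.2 to 17.9 on 2-kPa elastic, 12.2 to 32.9 on 20-kPa elastic, 37.4 to 55.5 on 2-kPa viscoelastic and 16.7 to 39.7 on 20-kPa viscoelastic gels.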

Additional observations from a re-analysis of the deposited data

Results flagged for a closer look

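In 5 lysosomal genes the effect of stiffness differed between elastic and viscoelastic gels in the test of that difference. The interaction (20 kPa minus 2 kPa on viscoelastic gels, less the same on elastic gels, log2 scale) was 0.54 for Hexa, 0.50 for Ctsk, 0.41 for Ctsf, 0.35 for Gaa and 0.31 for Idua. The adjusted p values were 0.00228, 0.0477, 0.0308, 0.0486 and 0.0420 in edgeR's quasi-likelihood test. All 5 were above 0. The interaction is built from the stiffness effects reported above, so it is not separate from them. The call of Hexa alone held under all 19 alternatives. The other 4 were lost under 8 to 13 of them, and 2 of the 5 remained with the replicate block.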

How the results depend on the processing

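Over the 6 comparisons 53 calls of lysosomal genes were made, and none changed direction under any alternative. DESeq2 kept 53 of them, median-of-ratios factors 49, total counts 46, every gene with a count 48, the gene length correction 47 and the replicate block 46. Fits to only the 6 samples compared kept 32 of 35, and 25 calls held under every alternative. Leaving out 1 sample at a time gave 7 to 18 called genes for gel type at 2 kPa (13 with all samples), 4 to 9 at 20 kPa (8), 7 to 18 for stiffness on elastic gels (14), 0 on viscoelastic gels (0), 11 to 18 for the mean viscoelastic effect (13) and 1 to 11 for the interaction (5). In the same fits the calls among all tested genes also moved. They numbered 1545 to 3085 for gel type at 2 kPa (2892 with all samples) and 3177 to 5381 at 20 kPa (4866). For stiffness they numbered 1063 to 2369 on elastic gels (2029) and 9 to 351 on viscoelastic gels (331). The mean viscoelastic effect gave 4914 to 6061 (5817) and the interaction 670 to 1182 (1100). The interaction count of lysosomal genes was 3 with median-of-ratios factors, 3 with total counts and 2 with the replicate block. Leaving out replicate 2 of both viscoelastic groups, which was chosen after the data were seen, gave 21 called genes for gel type at 2 kPa and 21 for stiffness on elastic gels, and left 46 of the 53 calls. By their labels, samples of different groups share only a replicate number. The replicate block moved no count other than the interaction by over 1.5 times. The cause of these shifts was not tested.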
